A study of Mus musculus with 6 samples.

Results

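RNA of 10 secretory and mucosal defense genes, whose proteins are released onto or line mucosal surfaces, was measured in dental epithelial organoids (DEOs): Scgb1a1, Bpifb4, Pigr, Lcn2, Ltf, Wfdc2, Slpi, Muc1, Muc4 and Muc20. These are 10 of the 47360 gene symbols in the expression table and were picked by name. The list was drawn up with the values in view, since Scgb1a1 had the lowest ratio with the Notch inhibitor and Bpifb4 the highest ratio with FGF10 among genes with transcripts of at least 300 nt and an FPKM of at least 5. Because the members were chosen by these values, what follows describes them and tests nothing.

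The DEOs were grown for 14 days in Matrigel from epithelial cells of the apical incisor buds of a 9-week-old female C57BL/6J mouse, wild type. All media held Wnt3a and R-spondin1 as conditioned media, EGF at 100 µg/ml, Noggin at 200 µg/ml, N-acetylcysteine and Y27632, and this mixture alone is called +N. Dibenzazepine (DBZ) at 10 µM by the labels (the methods text writes mM) was added in +ND, FGF10 at 100 µg/ml in +NF, and both in +NFD. Each medium has 1 library, so no difference between media has a replicate check, and neither an SD nor a p-value is given. A fit of both agents over the 4 libraries would leave 1 residual degree of freedom and was not made, since the genes were chosen by these contrasts. Whether the libraries came from separate cultures was not stated. The +NJ and +NFJ libraries, which had Jagged1, were not analysed here.

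Mucosal epithelia shed a fluid that traps, starves or lyses microbes and holds proteases in check. Secretoglobins and BPI-fold proteins are small or lipid-binding secreted proteins, lipocalin 2 and lactoferrin withhold iron from bacteria, and WAP-domain proteins such as Slpi inhibit serine proteases. Mucins form gels or a coat on the cell, and the polymeric immunoglobulin receptor carries IgA and IgM across the cell. Notch signaling steers secretory and other fates in many epithelia. DBZ blocks the γ-secretase cleavage that activates Notch receptors, and FGF10 is a mesenchymal ligand for epithelial FGF receptors.

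Values are the FPKM of the authors, which relate fragments to transcript length and to the depth of the library. This allows levels to be set side by side between genes of different length. Ratios are log2((FPKM + 1)/(FPKM + 1)) taken where the higher of both libraries reached an FPKM of 1, and genes were counted from a 2-fold ratio on. The added 1 shrinks the ratios of low genes, so plain FPKM ratios are given beside them. By the steps between low values, +ND had about 0.777 times the fragments of +N, +NF about 1.02 times and +NFD about 0.978 times. Only 29.5% to 36.5% of the low values lay within 0.1 fragments of a whole number, so the steps stood out weakly and these depths are approximate. Fragment numbers also take the longest annotated transcript of a gene as its length. Intervals are 95% exact intervals on the fragment numbers so estimated. They cover counting error only, not the error of the depth or of the length. Between 12529 and 12959 of the 47360 symbols reached an FPKM of 1 in a library. That share stands beside each count of genes over or under this level below. All 10 markers of dental and stratified epithelium reached an FPKM of 1 too, among them Krt14 at 5530 to 12652.

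Slpi, a protease inhibitor, made up most of the summed level of the 10 genes. Their summed FPKM was 2750 in +N and 1493 in +ND, and 2664 in +NF and 1341 in +NFD. Its share was 71.5%, 90.8%, 61.4% and 74.6% in the same order. Without Slpi the sums were 785, 137, 1029 and 340, so both media with DBZ lay below both media without it.

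**Figure D1:**
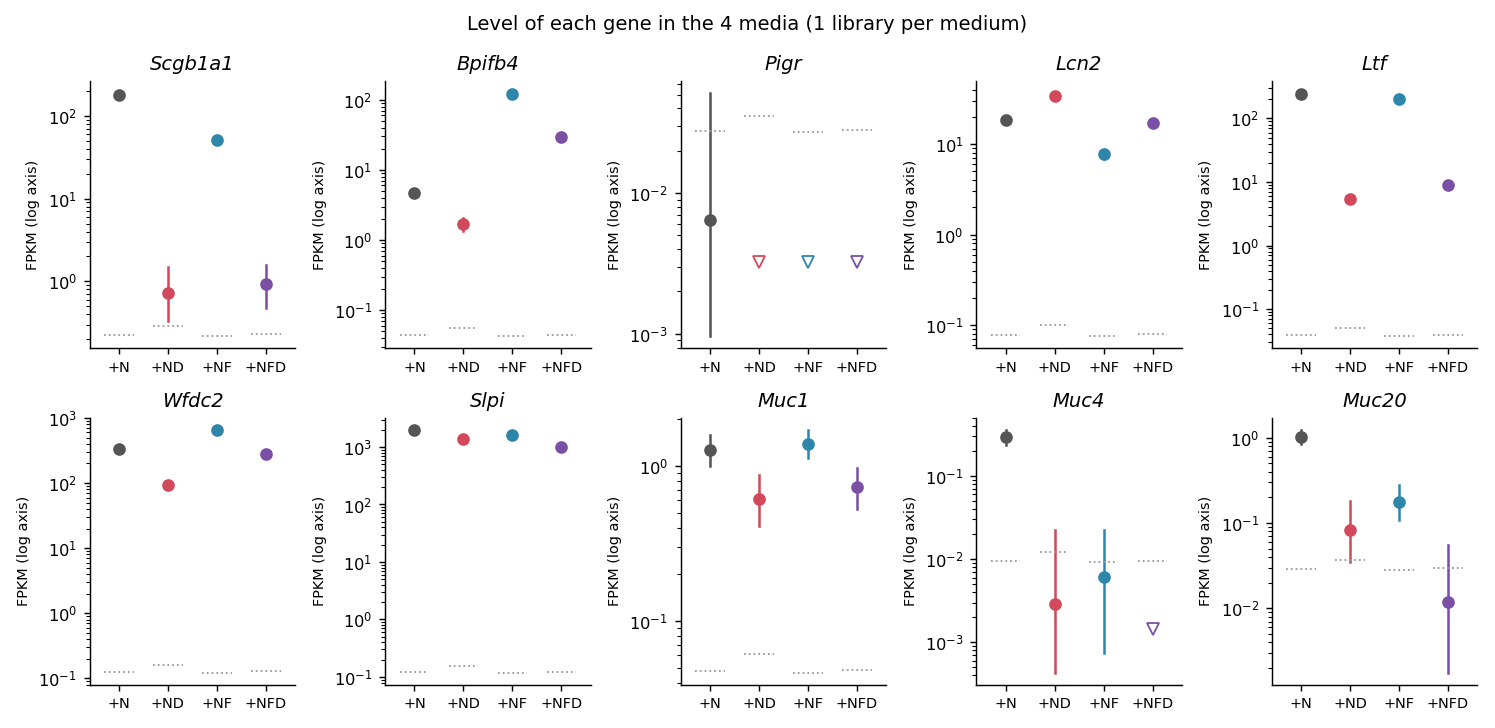
FPKM (log axis) of each gene in the 4 media, with 1 point per library, lines for the 95% counting interval, dotted marks for the value of 3 fragments and open triangles for values listed at 0. Scgb1a1 and Ltf lay far lower in +ND and +NFD than in +N and +NF, Bpifb4 was highest in +NF, and the 4 values of Slpi stayed between 1000.25 and 1965.

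Scgb1a1 encodes secretoglobin 1A1, the main secreted protein of club cells in the airway. It lies at chr19:9083636-9087958 on the minus strand (GRCm38), with 1 annotated transcript of 476 nt. Its FPKM was 181 in +N and 0.721 in +ND, and 51.8 in +NF and 0.918 in +NFD. The values in both media with DBZ were near the counting limit, at about 8 and 12 fragments against about 2439 in +N. Its FPKM was 251-fold lower in +ND than in +N (interval 120 to 549) and 56.4-fold lower in +NFD than in +NF (interval 32.3 to 110).

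On the log2 scale these were ratios of -6.73 and -4.78, and the ratio of +NFD to +N was -6.57. Scgb1a1 was the lowest of 9920 ranked genes in +ND against +N, which is the value it was chosen by, and the second lowest of 10004 in +NFD against +NF. The genes next to it in the former order were Wfdc18 at -6.70 and Nat8l at -5.88. This order depends on the added 1. Wfdc18 was listed at 0 in +ND, and against the value of 3 fragments in that library it was at least 692-fold lower than in +N, a larger ratio than that of Scgb1a1. FGF10 alone also went with a lower Scgb1a1, by 3.50-fold (interval 3.22 to 3.81). Between +ND and +NFD no difference was detectable at this depth, with a ratio of 1.27 (interval 0.448 to 3.36).

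Scgb1a1 stood alone in its family. Of 25 secretoglobin genes in the table it was the single one to reach an FPKM of 1 in a library, and 22 were listed at 0 in all 4 libraries. Scgb3a1 and Scgb3a2, secretoglobins of airway secretory cells, were among those at 0, and the club cell oxidase Cyp2f2 had at most 0.828. Other genes of a list of 14 club and airway secretory cell markers were present, and 6 of the 8 that passed the filter were at least 2-fold lower in +ND than in +N, against 1 higher. Over all genes 5.29% were lower and 5.88% higher, shares that stand beside each list count in this comparison below. The median log2 ratio of the list was -3.03, beside 0.10 for all genes. Scgb1a1, which was chosen by this comparison, is one of the 6. Without it 5 of 7 were lower and 1 higher, with a median of -2.51.

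Among the others, Gabrp, a GABA receptor subunit, had 40.0 in +N and 0.973 in +ND, and 8.48 in +NF and 0.208 in +NFD. Selenbp1, a selenium-binding protein, had 63.3, 2.78, 19.1 and 5.09 in the same order, and Aldh1a1, a retinaldehyde dehydrogenase, had 24.3, 1.15, 5.80 and 0.845. All 3 were lowest in the media with DBZ and lower in +NF than in +N, as Scgb1a1 was. Krt19 had the same pattern, at 10.6, 1.03, 6.95 and 2.09, and so did Cyp2f2 below an FPKM of 1. The pattern was not shared by the markers that follow. Cbr2, a carbonyl reductase and the most abundant of the list, had 1123, 1041, 776 and 790. Hp, haptoglobin, was higher in +ND, at 0.336, 2.23, 0.447 and 0.326. Cldn10 was higher with FGF10 and Krt7 differed little with it, at 3.99 in +N and 5.15 in +NF. Of the 13 markers other than Scgb1a1, 4 stayed under an FPKM of 1 in every library. In bulk RNA, fewer cells that express a gene and less RNA per cell cannot be told apart.

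The genes whose profile over the 4 libraries was nearest to that of Scgb1a1, among 10356 genes compared by the distance of centred log2(FPKM + 1) values, were Nat8l (distance 0.758), Wfdc18 (1.32) and Enpp3 (1.35). Nat8l, which makes N-acetylaspartate, had 99.8 in +N and 0.712 in +ND, and 25.6 in +NF and 0.151 in +NFD. Enpp3, an ectonucleotidase, had 42.8, 0.230, 19.0 and 0.419. With 4 libraries, such likeness rests on 4 points per gene.

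Ltf, which encodes lactoferrin, a secreted iron-binding protein of the transferrin family, was also far lower with DBZ. The gene lies at chr9:111019271-111042767 on the plus strand. Its FPKM was 246 in +N and 5.45 in +ND, and 199 in +NF and 8.90 in +NFD. The values fell into a high pair without DBZ and a low pair with it. The FPKM was 45.2-fold lower in +ND than in +N (interval 40.5 to 50.5) and 22.4-fold lower in +NFD than in +NF (interval 20.7 to 24.2). On the log2 scale the ratios were -5.26 and -4.34, the fourth lowest of 9920 and the fifth lowest of 10004. FGF10 went with a log2 ratio of -0.30 without DBZ and 0.62 with it, both under 2-fold.

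The letters upstream of the members were read for 4 short motifs on both strands: the RBPJ core TGGGAA (RBPJ is the DNA-binding partner of Notch), AP-1 TGANTCA, ETS GGAAGT (ETS factors act downstream of FGF receptors) and C/EBP TTNNGCAA. The 250 bases before the RefSeq start (GRCm38.p6) were at hand for 9 of the 10 genes, Scgb1a1 being the one without an entry. They are printed for Ltf and Wfdc2, which were lower with DBZ in both backgrounds, and for Bpifb4, which was higher with FGF10 in both. Capitals mark a motif match, C/EBP in Ltf and the RBPJ core on the opposite strand in Wfdc2.
Ltf, chr9:111019042-111019291, plus strand: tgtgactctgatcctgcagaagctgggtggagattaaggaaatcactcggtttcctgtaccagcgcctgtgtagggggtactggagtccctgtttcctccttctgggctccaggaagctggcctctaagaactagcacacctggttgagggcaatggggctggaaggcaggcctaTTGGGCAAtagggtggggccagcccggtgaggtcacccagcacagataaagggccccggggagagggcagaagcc
Wfdc2, chr2:164562465-164562714, plus strand: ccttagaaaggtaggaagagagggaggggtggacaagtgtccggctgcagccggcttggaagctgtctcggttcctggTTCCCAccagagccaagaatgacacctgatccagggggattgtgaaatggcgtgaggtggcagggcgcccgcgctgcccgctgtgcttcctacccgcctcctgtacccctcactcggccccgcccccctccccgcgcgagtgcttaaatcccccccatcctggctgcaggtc
Bpifb4, chr2:153940612-153940861, plus strand: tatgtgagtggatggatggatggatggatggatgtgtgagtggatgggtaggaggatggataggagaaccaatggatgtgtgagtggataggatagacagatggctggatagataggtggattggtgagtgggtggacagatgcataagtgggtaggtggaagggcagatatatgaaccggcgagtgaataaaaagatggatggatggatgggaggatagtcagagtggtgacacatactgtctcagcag
The RBPJ core was in 2 of the 9 windows (Pigr and Wfdc2) and in 21.5% of 27025 such windows over all genes. C/EBP was in 3 of 9 (Lcn2, Ltf and Slpi) against 9.55%, ETS in 1 of 9 (Slpi) against 20.0%, and AP-1 in 0 of 9 against 6.87%. A match is only a run of letters. The Bpifb4 window had no match and holds 18 copies of the letters ggat. The RefSeq start behind a window can lie inside the gene as the file bounds it, by 32588 bases for Slpi, 2650 for Bpifb4, 513 for Lcn2, 302 for Wfdc2 and 21 for Ltf.

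Wfdc2 encodes a small secreted protein with WAP four-disulfide cores, known from oral, airway and reproductive epithelia. It lies at chr2:164562413-164568510 on the plus strand. Its FPKM was 332 in +N and 94.3 in +ND, and 646 in +NF and 283 in +NFD. The order follows both factors, with DBZ lower and FGF10 higher in either background. The FPKM was 3.52-fold lower in +ND than in +N (interval 3.34 to 3.71) and 2.28-fold lower in +NFD than in +NF (interval 2.22 to 2.35). FGF10 went with 1.95-fold more without DBZ (interval 1.90 to 2.00), and with 3.01-fold more with DBZ (interval 2.85 to 3.17). The levels in +N and +NFD, where both factors were absent or both present, differed by 1.17-fold.

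Slpi, the secretory leukocyte protease inhibitor, inhibits neutrophil elastase. It lies at chr2:164354070-164389095 on the minus strand, 173 kb from Wfdc2. Its FPKM was 1965 in +N and 1356 in +ND, and 1635 in +NF and 1000.25 in +NFD. Slpi was the most abundant of the 10 in every medium and varied least among those above an FPKM of 5. Its ratio was -0.54 in +ND against +N, -0.71 in +NFD against +NF, and -0.97 in +NFD against +N, under 2-fold in each.

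The WAP family did not move as a block. Of its 23 genes in the table, 6 passed the filter in +ND against +N, of which 1 was at least 2-fold higher and 2 were lower, with a median log2 ratio of -0.07. Wfdc18, a secreted WAP protein, had 103 in +N and 0 in +ND, and 13.0 in +NF and 0.823 in +NFD. Wfdc12, another secreted WAP protein, went the other way, with 0.149, 12.5, 0.0968 and 2.32. By profile distance Wfdc18 was the family member nearest to Scgb1a1, while Wfdc12 was highest where Wfdc18 was listed at 0.

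Bpifb4, a BPI-fold protein of the lipid-binding family that includes bactericidal/permeability-increasing protein, lies at chr2:153938212-153964101 on the plus strand. Its FPKM was 4.71 in +N and 1.70 in +ND, and 122 in +NF and 29.4 in +NFD. Both media with FGF10 lay above both without it, and DBZ went with the lower value in each pair. The FPKM was 25.8-fold higher in +NF than in +N (interval 23.1 to 29.0) and 17.3-fold higher in +NFD than in +ND (interval 14.1 to 21.7). On the log2 scale these were 4.43, the highest of 9821 and the value it was chosen by, and 3.49, the fourth highest of 9988. The next genes in the former order were Rbp4 at 3.70 and Cldn10 at 3.44.

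DBZ went with lower Bpifb4 in either background, by 2.76-fold in +ND against +N (interval 2.19 to 3.55) and by 4.13-fold in +NFD against +NF (interval 3.93 to 4.34). With both agents the gene was still 6.25-fold above +N (interval 5.56 to 7.06). FGF10 and DBZ thus went with opposite shifts of this gene, and the one with FGF10 was the larger.

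Its genomic neighbours in the BPI-fold cluster were low. Bpifb3, on the side before it, had 0.230 in +N and 0 in +ND, and 1.17 in +NF and 1.28 in +NFD, and Bpifa6, on the other side, was listed at 0 throughout. Of 17 BPI-fold genes, 8 were listed at 0 in all libraries and 6 reached an FPKM of 1. Bpifb1, a secreted protein of airway and oral epithelium, had 0.214, 0.167, 1.63 and 0.930. Bpifc had 6.51, 14.96, 1.94 and 5.92, lower with FGF10 and higher with DBZ, the reverse of Bpifb4. Pltp, which carries phospholipids between lipoproteins in blood, had 9.90, 32.3, 22.5 and 44.6. Bpifa5 had 0.0394, 3.21, 0.831 and 1.34. In +NF against +N, 5 family genes passed the filter, 3 were at least 2-fold higher (Bpifb4, Bpifb1 and Pltp) and 1 was lower (Bpifc). Over all genes 2.76% were higher and 2.44% lower. Bpifb4 was chosen by this comparison, and without it 2 of 4 were higher and 1 lower.

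The profiles nearest to that of Bpifb4 were those of Calca (distance 1.34), Cldn10 (1.52) and Cyp26a1 (1.64), again among 10356 genes. Calca, the gene of calcitonin and CGRP, had 78.9 in +N and 35.1 in +ND, and 636 in +NF and 171 in +NFD, the same order of the 4 media. Cldn10, a tight junction claudin, had 0.157, 0, 11.6 and 10.2, and Cyp26a1, which breaks down retinoic acid, had 0.267, 0.145, 11.2 and 10.2. The latter 2 were high with FGF10 and almost equal with and without DBZ, unlike Bpifb4.

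Lcn2 encodes lipocalin 2, which binds bacterial siderophores. It lies at chr2:32384633-32388252 on the minus strand. Its FPKM was 18.4 in +N and 34.4 in +ND, and 7.71 in +NF and 17.1 in +NFD. Lcn2 was higher with DBZ, against the other members that passed the filter, and lower with FGF10. With DBZ it was 1.87-fold higher without FGF10 (interval 1.70 to 2.06) and 2.21-fold higher with it (interval 1.93 to 2.54). FGF10 went with 2.39-fold less without DBZ (interval 2.09 to 2.74) and 2.02-fold less with it (interval 1.83 to 2.23). On the log2(FPKM + 1) scale the latter was -0.97, just under the 2-fold line. The levels in +N and +NFD differed by 1.08-fold, with an interval of 0.971 to 1.20.

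The 2 iron-withholding members therefore moved in opposite directions with DBZ. Of 19 genes in the table on a list of lipocalins, transferrins and the transferrin receptor, 5 passed the filter in +ND against +N. Of these, 2 were at least 2-fold higher and 1 was lower, the latter being Ltf. The higher ones were Rbp4, the retinol carrier of the lipocalin family, at 1.90 in +N and 12.8 in +ND, and 36.7 in +NF and 26.7 in +NFD, and Tfrc, the transferrin receptor, at 13.6, 45.8, 24.7 and 24.1.

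Ltf and Lcn2 are also products of neutrophil granules. Of 14 further neutrophil markers, 10 stayed under an FPKM of 1 in every library, and Mpo, Elane, Ngp, Camp and Retnlg were at 0 in all. These 10 summed to between 0.457 and 0.879, a low sum that follows from grouping the genes under that limit. The remaining 4 are S100a8, S100a9, Mmp9 and Itgam, which keratinocytes or macrophages also make, and the 14 together summed to 523 in +N and 258 in +ND, and 532 in +NF and 241 in +NFD. S100a9, a calprotectin subunit, had 333 in +N and 141 in +ND, and 129 in +NF and 49.3 in +NFD. Its partner S100a8 was higher with DBZ, at 4.96, 28.9, 1.31 and 4.52. Mmp9, a gelatinase, had 176, 84.0, 395 and 182, and Itgam, an integrin subunit, had 8.14, 3.21, 6.17 and 4.04. The 4 did not share an order, and their part in the values of Ltf and Lcn2 was not tested.

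Muc1 and Muc4 are membrane-bound mucins that coat the apical side of epithelial cells, and Muc20 is a smaller membrane mucin. All 3 were scarce. Muc1 (chr3:89229057-89233381, plus strand) had an FPKM of 1.27 in +N and 0.610 in +ND, and 1.39 in +NF and 0.730 in +NFD. It was lower with DBZ in both backgrounds, by 2.08-fold (interval 1.35 to 3.27) and 1.91-fold (interval 1.32 to 2.80), on 30 to 90 fragments per library. With the added 1 the log2 ratios were -0.49 and -0.47, both under 2-fold. FGF10 went with a ratio of 1.10 without DBZ (interval 0.805 to 1.51).

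Muc20 had an FPKM of 1.02 in +N and 0.0833 in +ND, and 0.178 in +NF and 0.0118 in +NFD. It was highest in +N, and each added agent went with less of it. The FPKM was 12.2-fold lower in +ND than in +N (interval 5.51 to 30.0) and 5.72-fold lower in +NF (interval 3.48 to 9.84). In +NFD about 1 fragment was left, 86.4-fold lower than in +N with an interval of 18.2 to 4135. The log2 ratios with the added 1 were -0.90, -0.78 and -0.996, just short of the 2-fold line, so none of these is in the counts.

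Muc4 had an FPKM of 0.292 in +N and 0.00288 in +ND, and 0.00608 in +NF and 0 in +NFD. Its value in +N came from about 93 fragments, while the other libraries had at most 2. Taking 3 fragments as the limit, Muc4 was at least 30.4-fold lower in +NFD than in +N. It did not pass the filter in any comparison. Muc4 and Muc20 lie tail to tail, Muc4 at chr16:32735886-32782391 on the plus strand and Muc20 at chr16:32777419-32797435 on the minus strand, with 4973 bases in common that include exons of both. How the counting treated strand is not given in the sources used here, so reads of the shared bases cannot be told apart.

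Other mucins were as scarce. Of 16 mucin genes in the table, 3 reached an FPKM of 1, namely Muc1, Muc20 and Muc15. Muc15, a membrane mucin, had 3.72 in +N and 1.10 in +ND, and 0.963 in +NF and 0.376 in +NFD, highest in +N and lowest in +NFD as Muc20 was, and at least 2-fold lower in all 3 comparisons with +N. These comparisons share the +N library. The enzymes that build mucin sugars were present by contrast. Of 24, 17 passed the filter in +ND against +N, with 3 at least 2-fold lower and 0 higher. Those were Galnt12 (19.4 in +N, 5.78 in +ND), B3gnt3 (32.6 and 10.8) and St6gal1 (6.37 and 1.99). In +NF against +N, 1 of 17 was at least 2-fold higher and 0 were lower, beside 2.76% and 2.44% of all genes. That gene was Galnt6, an enzyme that starts O-glycans, at 42.5 against 10.9.

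Pigr (chr1:130826684-130852249, plus strand), the polymeric immunoglobulin receptor, was not detected above the counting limit. Its FPKM of 0.00644 in +N stood for about 1 fragment, and it was listed at 0 in +ND, +NF and +NFD. In +ND, the shallowest library, 3 fragments would be worth 0.0355, and the 95% interval of a count of 0 reaches 0.0437. Of a list of 14 genes of polymeric immunoglobulin transport that includes it, 10 passed the filter in +ND against +N, with 3 at least 2-fold lower and 0 higher. These were Ighm, the IgM heavy chain (7.93 and 2.89), Rab3d, a secretory granule GTPase (75.3 and 34.8), and Rab17, a GTPase of transcytosis (1.93 and 0.437). Of 11 B and plasma cell markers, 9 stayed under an FPKM of 1 in every library.

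Over the members, the comparisons with DBZ gave most of the counted ratios. In +ND against +N, 8 of the 10 passed the filter, 4 were at least 2-fold lower (Scgb1a1, Ltf, Wfdc2 and Bpifb4) and 0 were higher. Over all 13173 genes that passed, 5.29% were lower and 5.88% were higher. In +NFD against +NF, which shares no library with the former, 7 passed, the same 4 were lower and Lcn2 was higher, against 2.69% and 3.72% of all genes. All 4 genes are thus among the 2.13% of genes that were at least 2-fold lower with DBZ in both backgrounds. The list was selected on these contrasts, so its counts are no evidence beyond the values themselves. The median log2 ratios of the members were -0.99 and -1.19, beside 0.10 and 0.05 for all genes.

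With FGF10 the members were split. In +NF against +N, 8 passed, Bpifb4 was higher, and Scgb1a1 and Lcn2 were lower, against 2.76% higher and 2.44% lower of all genes. In +NFD against +ND, 5 passed, Bpifb4 and Wfdc2 were higher and 0 were lower, against 3.39% and 3.11%. Bpifb4 was the one member among the 0.863% of genes at least 2-fold higher with FGF10 in both backgrounds. In +NFD against +N, 8 passed, Bpifb4 was higher, and Scgb1a1 and Ltf were lower, against 5.85% higher and 4.03% lower. The comparison of +NFD with +N shares its libraries with the others and adds no independent value. When each ratio was centred on the median of all genes, the direction of the counts over all genes turned in 4 comparisons: +ND against +N gave 615 higher and 842 lower in place of 774 and 697, +NF against +N gave 248 and 412 in place of 361 and 319, +NFD against +N gave 540 and 714 in place of 782 and 538, and +NFD against +ND gave 345 and 506 in place of 450 and 414.

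**Figure D2:**
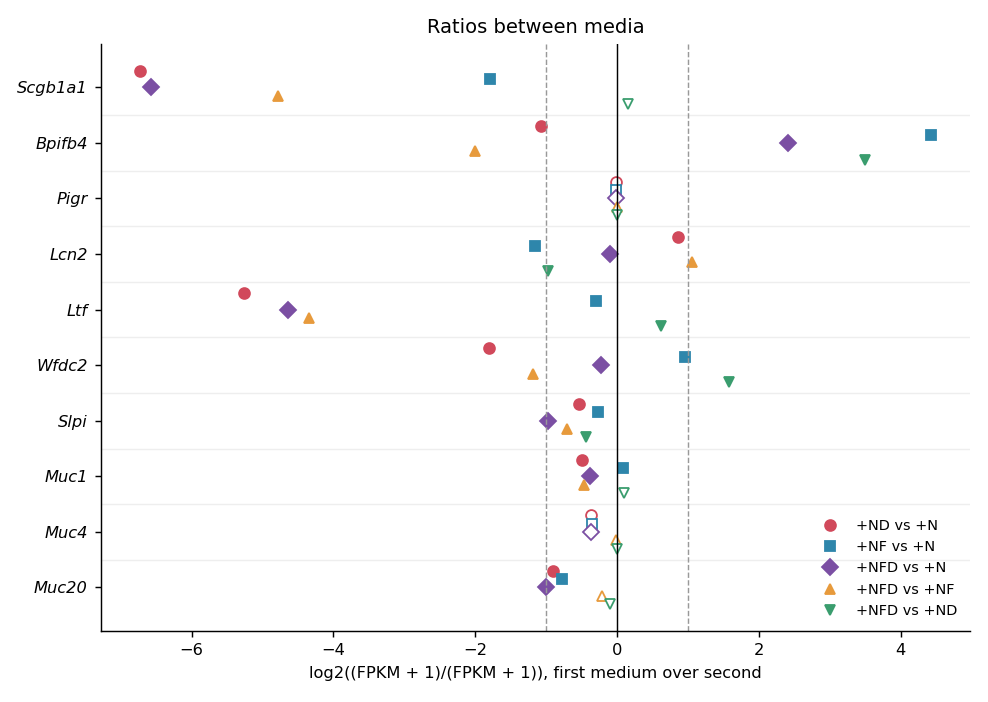
log2((FPKM + 1)/(FPKM + 1)) of each gene in 5 comparisons of media, with 1 symbol per comparison, open where the gene was under an FPKM of 1 in both libraries, and dashed lines at 2-fold. Scgb1a1 and Ltf lie between -6.73 and -4.34 in every comparison with DBZ against its own background, and Bpifb4 lies at 4.43 and 3.49 with FGF10.

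The effect of each agent can be read in 2 backgrounds that share no library. With DBZ, the 7 members that passed in both had the same sign in both. The shift of Scgb1a1 and Ltf was smaller on the log2 scale with FGF10 present (-4.78 and -4.34) than without it (-6.73 and -5.26), that of Wfdc2 was -1.19 against -1.81, and that of Bpifb4 was larger, at -2.01 against -1.08. With FGF10, Bpifb4, Wfdc2, Lcn2 and Slpi kept their sign, while Ltf did not. Scgb1a1 was under the filter in +NFD against +ND, and the interval of its ratio there, 0.448 to 3.36, leaves the sign undetermined. None of these differences between backgrounds could be tested with 1 library each.

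**Figure D3:**
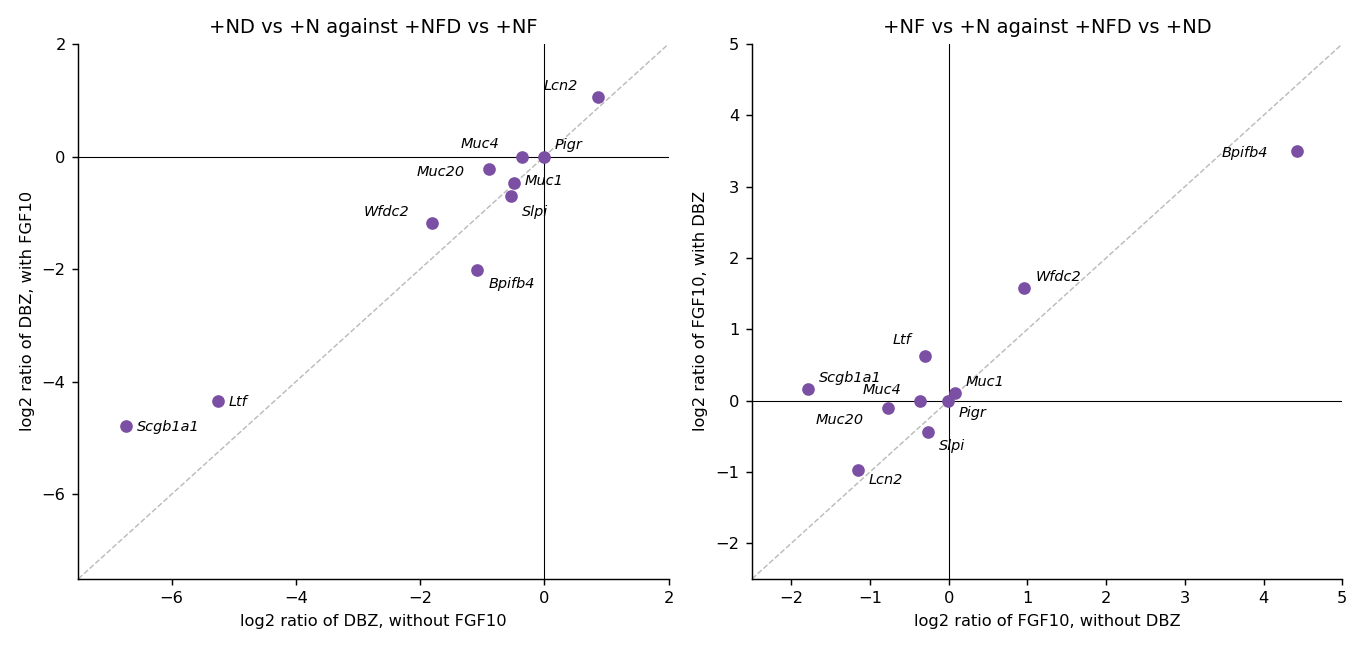
Log2 ratio of each agent without the other agent (x axis) against that with it (y axis), DBZ on the left and FGF10 on the right, with 1 point per gene and a dashed line where both ratios are equal. With DBZ, Scgb1a1 lies at -6.73 and -4.78, and with FGF10, Bpifb4 lies at 4.43 and 3.49 while Scgb1a1 lies at -1.79 and 0.16.

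A list of 42 other antimicrobial and mucosal proteins, none of them a member, showed which defense genes the DEOs expressed besides these. Of the 42, 23 reached an FPKM of 1 in a library and 12 were at 0 in all. In +ND against +N, 22 passed the filter, 8 were at least 2-fold lower and 3 were higher, with a median log2 ratio of -0.56. Over all genes 5.29% were lower and 5.88% higher, with a median of 0.10. In +NF against +N, 8 of 22 were lower and 0 higher (median -0.84), beside 2.44% and 2.76% of all genes (median 0.12). In +NFD against +N, 11 of 22 were lower and 1 higher (median -0.94), beside 4.03% and 5.85% (median 0.18). These 3 comparisons share +N. In +NFD against +NF, 3 of 22 were lower and 3 higher (median -0.20), beside 2.69% and 3.72% (median 0.05). In +NFD against +ND, 7 of 21 were lower and 2 higher (median -0.09), beside 3.11% and 3.39% (median 0.09).

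The β-defensins, small cationic antimicrobial peptides, divided between both agents. Defb3 had 570 in +N and 52.0 in +ND, and 297 in +NF and 50.0 in +NFD, low with DBZ like Ltf. Defb6 had 63.8, 0.729, 15.4 and 3.57. Defb1 had 97.2, 71.8, 23.6 and 20.0, low with FGF10 and little different with DBZ. Defb4 had 8.28, 24.9, 0.857 and 5.02, higher with DBZ and lower with FGF10 in either background, the pattern of Lcn2.

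Sftpd, the collectin surfactant protein D that binds microbial sugars, had 24.1 in +N and 0 in +ND, and 19.4 in +NF and 0.0194 in +NFD. Against the value of 3 fragments it was at least 319-fold lower in +ND than in +N. Like Ltf, it was high in both media without DBZ and low in both with it.

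**Figure D4:**
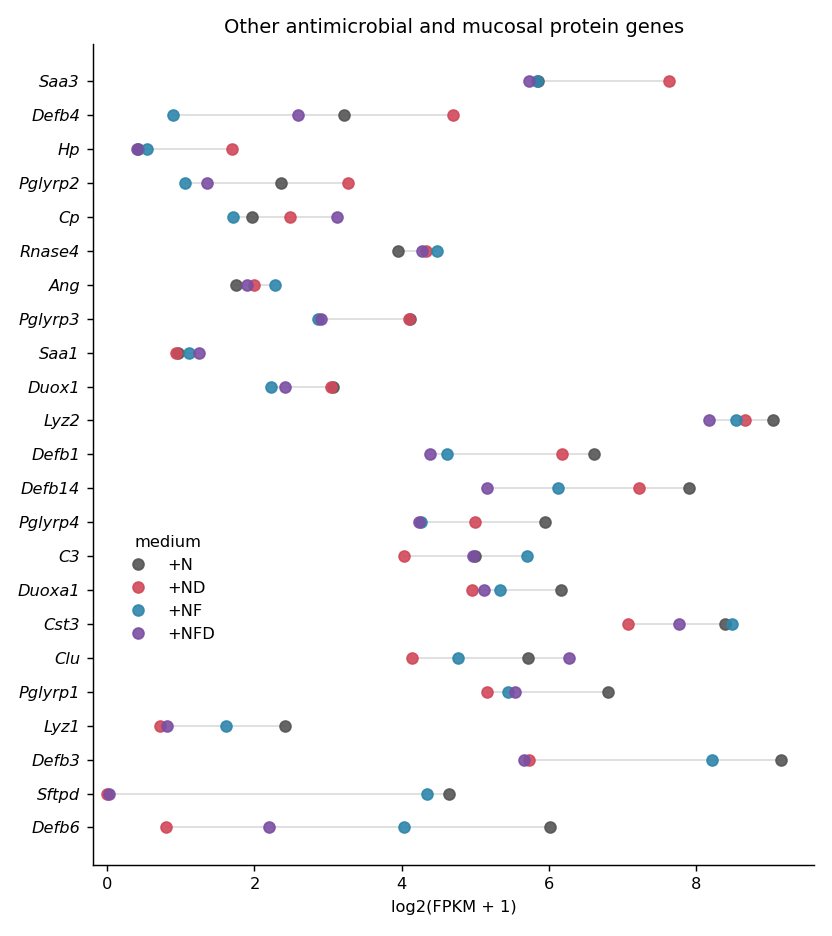
log2(FPKM + 1) of the 23 other antimicrobial and mucosal protein genes that reached an FPKM of 1 in a library, with 1 point per medium, sorted by the ratio of +ND to +N. Defb6, Sftpd and Defb3 at the bottom have the lowest ratios with DBZ (-5.23, -4.65 and -3.43).

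Of 29 factors and products of secretory and barrier epithelia, most of them transcription factors, 19 passed the filter in +ND against +N, with 3 at least 2-fold higher and 3 lower and a median of -0.25. Klf4, a factor of barrier formation, had 27.6 in +N and 68.2 in +ND, and Spdef, a goblet cell factor, had 0.370 and 2.54. Agr2, a disulfide isomerase of mucus-secreting cells, had 0.315 and 1.74. The 3 lower ones were Cebpa, Ehf and Hes1. Cebpa had 38.4 and 17.0, and Hes1 had 157 and 74.6. The epithelial ETS factor Ehf had 134 in +N against 63.3 in +ND and 60.8 in +NF. Elf5 had 51.4, 25.8 and 25.02, and at a log2 ratio of -0.97 in +ND against +N it was not counted. Ehf and Elf5 were about as low with DBZ as with FGF10. Grhl1, a grainyhead factor, had 23.6, 19.7 and 10.8 in these media.

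Markers of other cells moved with some of these comparisons. The 10 macrophage markers, all at an FPKM of at least 1 in a library, summed to between 175 and 237, with 237 in +N. The sum holds markers that moved in opposite directions. In +ND against +N, 1 of the 10 was at least 2-fold lower and 0 were higher, with a median log2 ratio of -0.08. That gene was Aif1, at 48.7 in +N and 10.9 in +ND, and 42.7 in +NF and 22.4 in +NFD. Cd68 was higher with DBZ, at 23.5, 36.2, 16.2 and 32.9. The 10 fibroblast markers, likewise all present, summed to 169 in +N and 152 in +ND, and 106 in +NF and 447 in +NFD. In +NFD against +NF, 8 of these 10 were at least 2-fold higher and 0 lower, beside 3.72% and 2.69% of all genes. The epithelial list summed to 21404, 12340, 17633 and 14865, and was lowest in +ND, where Krt14 had 5530 against 12652 in +N. The sum in +ND was 0.577 times that in +N, and Krt14 and Krt5 made up most of it in both. Of the 10 genes, 3 were at least 2-fold lower in +ND than in +N and 0 were higher, with a median log2 ratio of -0.30. Trp63, the basal cell factor p63, had 88.5 in +N and 166 in +ND, and Itgb4, a hemidesmosome integrin, had 195 and 234. The part of these shifts in the members' values was not tested.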

How the data were processed

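Bulk RNA was measured in DEOs from 4 media, 1 library each, and grouped by the labels. The authors prepared TruSeq libraries, trimmed reads with Trim Galore 0.6.5, checked them with FastQC 0.11.9, aligned them to GRCm38 with TopHat2 2.1.1 and deposited Cufflinks estimates in FPKM. The annotation release and the strand setting are not given in the sources used here. FPKM divides by transcript length and library size, so short or rare transcripts rest on few fragments and abundant ones lower all others.

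From the deposited FPKM, entries sharing a symbol were summed (123 symbols). Members were all named. The naming rule for the gene lists took genes that reached an FPKM of 1. It took at most the 3 largest ratios of at least 2-fold per list and comparison with +N. Listed genes adjacent to a member were named as well. Col3a1, Lum, Thy1, Vim, Cdh1, Epcam, Sox2, Tnfaip2 and Creb3l1 met the rule but are given no values here. For Scgb1a1 and Bpifb4 the 3 nearest profiles were named. Members and lists were chosen with earlier results of these data known. Genes named outside this rule (Scgb3a1, Scgb3a2 and Cyp2f2, the neutrophil markers listed at 0, Cbr2, Hp, Krt19, Agr2, Hes1, Cd68, Trp63 and Krt5, and the genes ranked next to Scgb1a1 and Bpifb4) were chosen after their values were seen. Fragment numbers came from the smallest steps of FPKM times length in genes with 1 transcript of at least 1000 nt. Positions came from GENCODE M21 (GRCm38), and 86.3% of the 46994 identifiers found there had the same start and end. Sequences are from RefSeq (GRCm38.p6), with 9 of 10 members matched by symbol. The computations were tested on simulated data, with Python 3.11.15, matplotlib 3.10.9, scipy 1.17.1, pandas 2.3.3 and numpy 2.4.6. Alternatives were other pseudocounts, filters, scalings, a fold of 1.5 and the highest entry per symbol.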

Additional observations from a re-analysis of the deposited data

Results flagged for a closer look

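The log2 ratio of FGF10 for Scgb1a1 was -1.79 without DBZ and 0.16 with DBZ, opposite in sign between the backgrounds. With DBZ present both levels rested on about 8 and 12 fragments, and the counting interval of their ratio was 0.448 to 3.36. For Ltf the log2 ratio of FGF10 was -0.30 without DBZ and 0.62 with DBZ. Neither difference between backgrounds was tested, since each value compares 1 library with 1 library.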

How the results depend on the processing

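Of 244 alternative values for 36 member ratios, 243 kept their sign. The exception was Muc1 in +NF against +N, at 0.08 as computed and -0.04 when centred. All 118 alternative values of members counted at 2-fold stayed at 2-fold or more, and 14 others reached it. Most of this was fixed in advance. Other filters and the highest entry per symbol leave a member's ratio as it was, and a smaller or absent pseudocount can only enlarge it. Only upper-quartile scaling and centring could have turned a sign or taken a ratio below 2-fold. Among all genes, the count at least 2-fold higher in +ND against +N was 1212 with a pseudocount of 0.1 and 1222 with none. In +NF against +N it was 712 and 720, and the count lower was 480 with a pseudocount of 0.1. In +NFD against +N the count higher was 1271 and 1269, and 488 where the filter was an FPKM of 5. In +NFD against +NF it was 307 with that filter. In +NFD against +ND it was 818, 829 and, with that filter, 290. Among the members, a fold of 1.5 gave 1 higher in +ND against +N (Lcn2) and 2 higher in +NF against +N (Wfdc2 besides Bpifb4). In +NFD against +N, 4 were lower under upper-quartile scaling, under centring and at a fold of 1.5 (Slpi and Muc20 besides Scgb1a1 and Ltf). In +NFD against +ND, 1 was lower with a pseudocount of 0.1, with none, under centring and at a fold of 1.5 (Lcn2). No paired analysis was possible because each comparison of media has 1 library on each side, and a fit of an agent across both backgrounds was not made. Muc20, Muc4 and Pigr, and Scgb1a1 with DBZ, are limited by depth, as their lowest values rest on 0 to 12 fragments.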

Other observations

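Cytokine genes that accompany mucosal defense were described apart from the comparisons above. Of 30 genes of the NF-kB and IL-17 response, 28 passed the filter in +ND against +N, 6 were at least 2-fold lower and 1 was higher, with a median log2 ratio of -0.43 (all genes 0.10), beside 5.29% lower and 5.88% higher of all genes. In +NFD against +NF, 5 of 28 were lower and 1 higher, with a median of -0.01, beside 2.69% and 3.72% of all genes (median 0.05). Il33, an alarmin held in epithelial nuclei, had an FPKM of 94.3 in +N and 8.45 in +ND, and 41.4 in +NF and 2.85 in +NFD. Csf3, the gene of G-CSF, had 28.2 and 1.55, and 29.4 and 3.08, in the same order. Csf2, the gene of GM-CSF, had 6.25 and 0.297, and 2.80 and 0.133. All 3 were lower with DBZ in both backgrounds, as Ltf was. The comparisons share no library, and no test was made.

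Markers of other secretory or ciliated epithelia were mostly under an FPKM of 1. So were most of the 47360 symbols, of which 12529 to 12959 reached it in a library. The counts that follow are given beside that share and were not tested against it. Of 17 salivary acinar and duct markers, 14 stayed under an FPKM of 1 in every library and 8 were at 0 in all. The exceptions included Slc12a2, a chloride cotransporter, at 5.37 in +N and 21.6 in +ND, and Krt7, a simple-epithelium keratin, at 3.99 and 0.706. Of 10 ciliated cell markers, 6 stayed under 1 and 0 were at 0 in all libraries. Tppp3, a tubulin-binding protein, had 1.19 in +N and 13.98 in +ND.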
